A study of Arabidopsis thaliana with 12 samples.

Results

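The 34 genes described here are nuclear genes for proteins of the 2 photosystems and of their light-harvesting antennae. They were taken as a list of loci: 4 of the major antenna of photosystem II, 4 of its minor antenna, 4 of the antenna of photosystem I, 12 of photosystem I itself, 6 of the oxygen-evolving side of photosystem II and 4 small subunits of photosystem II. All 34 were found among the 33602 loci of the files, and all 34 passed the filter on low counts. The study sequenced mRNA from whole Arabidopsis thaliana seedlings of 4 genotypes in the Col-0 ecotype, with 3 libraries each, to ask which transcripts change when DNA polymerase epsilon is deficient. DPB2oe1.11.5 and DPB2oe12.1.5 overexpress DPB2, abo4-1 carries an allele of POL2A, and wild-type Col-0 served as control. DPB2 is the second subunit of the polymerase and POL2A its catalytic subunit. Untreated plants of every genotype were raised to stage 1.02 with 16 h of light a day, at 65% humidity and 20 °C, on MS medium at 0.5x. The sources used here give neither the promoter that drives DPB2 nor the hour of harvest, nor whether replicates were grown separately. P values therefore measure the spread between these libraries, which may be technical.

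Photosystem II splits water and photosystem I reduces ferredoxin, and both are built from plastid-encoded cores to which nuclear-encoded subunits are added. Chlorophyll-binding antenna proteins, the LHCB family at photosystem II and the LHCA family at photosystem I, pass light energy to these cores. Transcripts of these genes are among the most abundant of green seedlings, depend on light and on GLK transcription factors, and cycle over the day. In whole seedlings, fewer green cells and less RNA per green cell cannot be told apart.

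Counted reads ran from 10902547 to 29456111 per library. DPB2 was raised in both overexpressing lines, by a log2 fold change of 5.25 ± 0.24 (SE) for DPB2oe1.11.5 and of 5.27 ± 0.24 for DPB2oe12.1.5 (edgeR, adjusted p = 1.76e-07 and 1.72e-07). The line DPB2oe1.11.5 also had more POL2A transcript than Col-0, by a log2 fold change of 0.84 ± 0.17 (edgeR, adjusted p = 0.0453). POL2A was at 0.62 in abo4-1 and at 0.35 in the other line, with neither past the test (adjusted p = 0.177 and 0.325). LHY, a morning clock gene, stood at 173 to 217 CPM (read counts scaled for library size) in 4 libraries, namely DPB2oe1.11.5 replicate 2, DPB2oe12.1.5 replicates 1 and 2, and abo4-1 replicate 2. The other 8 libraries, all 3 of Col-0 among them, held 3.97 to 48.1 CPM of LHY. Among these, Col-0 replicate 1, DPB2oe12.1.5 replicate 3 and abo4-1 replicate 1 were intermediate, at 26.6 to 48.1 CPM. The remaining libraries held 3.97 to 8.97 CPM. PRR5, a clock gene of the later day, was at 0.279 to 2.87 CPM in the 4 libraries of high LHY level. It was at 4.13 to 8.62 CPM in the intermediate libraries and at 33.3 to 51.8 CPM in the remaining ones. Counts and medians over the 34 genes and over the lists set beside them are therefore also given without the 4 libraries of high LHY level, in the comparisons with Col-0 and between mutants where stated. The libraries kept are still not matched for LHY level. DPB2oe12.1.5 keeps only its intermediate library and DPB2oe1.11.5 only libraries of low level, while Col-0 and abo4-1 keep both kinds.

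The 34 genes together took 14.04% ± 2.38 (SD, n = 12 libraries) of all counted reads. Their share was 15.8%, 16.9% and 16.7% in the Col-0 replicates, a mean of 16.5% ± 0.602. In abo4-1 it was 15.5%, 11.97% and 17.0%. DPB2oe12.1.5 gave 11.3%, 10.7% and 14.8%, and DPB2oe1.11.5 gave 12.9%, 11.3% and 13.4%. All 6 libraries of the overexpressing lines thus lay below all 3 of Col-0, while abo4-1 spanned the Col-0 range on both sides. The 4 libraries of high LHY level held the 4 lowest shares of the 12, and DPB2oe1.11.5 replicates 1 and 3, with LHY at 6.61 and 8.97 CPM, came next. The part of harvest time in these shares was not tested apart from the fits with LHY given below.

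**Figure D1:**
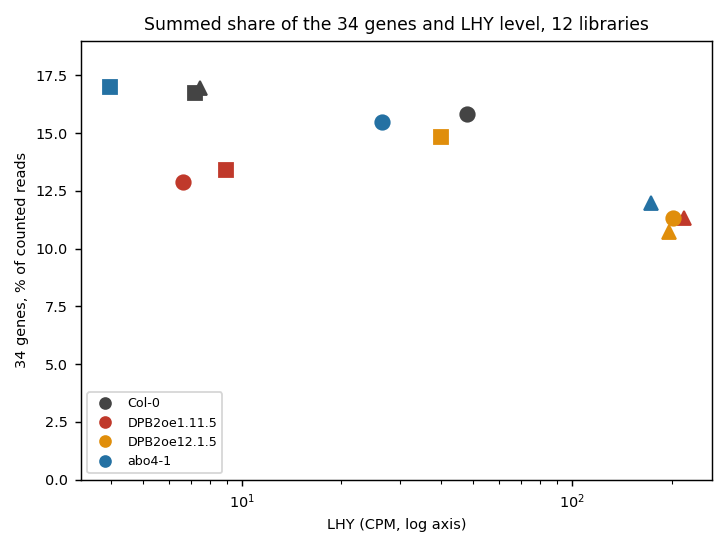
Share of counted reads taken by the 34 genes (linear axis from 0, in percent) against LHY level (CPM, log axis) in the 12 libraries, coloured by genotype, with circles, triangles and squares for replicates 1, 2 and 3. The 4 libraries with LHY at 173 CPM or more hold shares of 10.7% to 11.97%, and the DPB2oe1.11.5 libraries with little LHY lie at 12.9% and 13.4%, below the other libraries with little LHY.

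Levels were compared between genes per length, in CPM per kb of gene model. LHCB1.1 (AT1G29920), a chlorophyll-binding protein of the major antenna trimers, led in every genotype. Its level per kb was 12405, 10825 and 11180 in Col-0 and 11606, 7708 and 13643 in abo4-1. DPB2oe12.1.5 had 7564, 6697 and 11496 CPM per kb and DPB2oe1.11.5 had 6038, 7170 and 6476. The lowest in Col-0 was PSAD2 (AT1G03130), a stromal subunit at the ferredoxin docking site of photosystem I, at 1181, 847 and 1267 CPM per kb. LHCB1.1 was thus about an order of magnitude above PSAD2 per length in wild type. Neighbours in this order mostly overlapped: LHCA1 (8014 ± 983 CPM per kb) and LHCA4 (7986 ± 934), next to each other at rank 4 and 5 in Col-0, did not differ beyond their SD. LHCB6 (AT1G15820), a monomeric antenna protein between the major trimers and the core, was at rank 2 in Col-0 with 9597, 9731 and 10566 CPM per kb and at rank 8 in both overexpressing lines. DPB2oe12.1.5 had 4576, 3947 and 6943 CPM per kb of it, DPB2oe1.11.5 had 4725, 4069 and 4332, and abo4-1 had 9035, 6132 and 14098. All 6 overexpressor libraries were below all 3 of Col-0, and abo4-1 lay on both sides.

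The other genes that marked the top or bottom of their role group in Col-0 gave the following levels per kb. In the major antenna the lowest was LHCB2.2 (AT2G05070), a trimer protein, at 6440, 6400 and 5998. LHCB4.2 (AT3G08940), a linker protein between trimer and core, was lowest of the minor antenna at 5969, 5749 and 4990. The photosystem I antenna ran from LHCA1 (AT3G54890) at 6902, 8768 and 8373 down to LHCA3 (AT1G61520) at 5188, 6592 and 6078. The lowest gene of each antenna group thus lay between 4990 and 6592 CPM per kb in Col-0. In photosystem I, PSAL (AT4G12800), which docks the major antenna in state transitions, was highest at 7150, 6515 and 6951. On the oxygen-evolving side, PSBP1 (AT1G06680), an extrinsic protein of the water-splitting site, was highest at 6951, 7028 and 6643 and its partner PSBQ1 (AT4G21280) lowest at 1577, 1349 and 1579. Of the small subunits of photosystem II, PSBW (AT2G30570), known to stabilise supercomplexes with the antenna, was highest at 4498, 5061 and 5061 and PSBY (AT1G67740) lowest at 1944, 1604 and 1982. In DPB2oe1.11.5 the levels per kb of PSAL (3775, 3809, 4066), PSBP1 (4940, 4979, 5849), PSBQ1 (997, 1225, 1101) and PSBW (3340, 3149, 3820) all lay under their Col-0 values, as did those of LHCB2.2 (3700, 5190, 4112) and LHCA1 (5618, 4478, 5831).

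**Figure D2:**
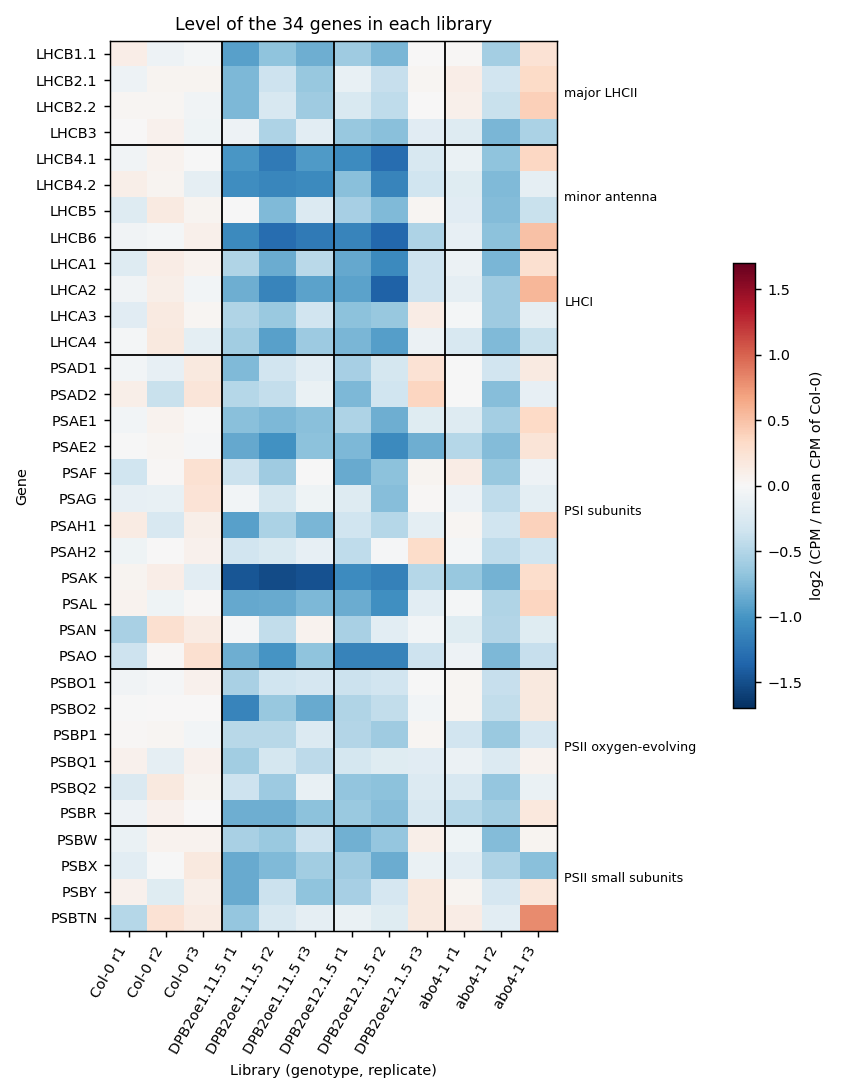
Level of each of the 34 genes (rows, grouped by role) in each of the 12 libraries (columns), as log2 of the CPM over the mean CPM of Col-0, with blue for lower and red for higher. PSAK is the darkest row in DPB2oe1.11.5, DPB2oe12.1.5 replicate 3 is paler than replicates 1 and 2, and abo4-1 replicate 2 is bluer than replicates 1 and 3.

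What changed in the first overexpressing line is asked by setting DPB2oe1.11.5 against Col-0. PSAK and LHCB4.2 fell, and the other 32 genes did not pass the test (adjusted p under 0.05 over all 19924 genes tested, edgeR). In the same comparison 0.532% of all genes tested fell. All 34 log2 fold changes were negative, from -1.48 for PSAK to -0.11 for PSAN, with a median of -0.59 against 0.00 for all genes tested, and 21 had an unadjusted p under 0.05 (14.9% of all genes tested). For 27 of the 34 genes all 3 libraries of the line lay below all 3 of Col-0, which was the case for 12% of all genes tested. Root marker genes had a like median in this line. Their median log2 fold change was -0.54, 12 of 14 were negative and 8 had no overlap with Col-0. EXPA7, an expansin of root hairs, fell (-1.94, edgeR, adjusted p = 0.0409), from a mean of 3.23 CPM in Col-0 to 0.82 CPM. Some other markers were also near the floor, with Col-0 means of 2.32 CPM for COBL9, 0.98 for PLT2 and 0.64 for RSL4. PYK10, by contrast, had means of 2010 CPM in Col-0 and 1683 CPM in the line. The summed level of the markers, most of it PYK10, was 2008 to 2287 CPM in Col-0 and 1699 to 1875 CPM in the line. The marker genes were above 0 in every library except 1 gene in 1 library of DPB2oe12.1.5. The median of the markers was close to that of the 34 genes but included genes of few CPM. The part of tissue proportions in the result was not tested.

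PSAK (AT1G30380), a membrane subunit on the side of photosystem I that faces its antenna, was at 4197, 4359 and 3586 CPM in Col-0 and at 1483, 1415 and 1446 CPM in DPB2oe1.11.5. The 3 libraries of the line were close together and far under every Col-0 library. Its level was 35.8% of that in Col-0 (log2 fold change -1.48 ± 0.27, adjusted p = 0.0248). LHCB4.2 was at 6709, 6462 and 5608 CPM in Col-0 and at 3014, 2910 and 2970 CPM in the line, again without overlap, with a log2 fold change of -1.08 ± 0.21 (edgeR, adjusted p = 0.0369). Both genes are shown with the 250 bases before their annotated start, since they are the 2 that passed, followed by PSAN, whose fold change was nearest to 0. The sequences run 5′ to 3′ on the strand of the gene, are RefSeq's of TAIR10.1, and lie at chr1:10721933-10722182 (plus strand), chr3:2717307-2717556 (plus strand) and chr5:25629709-25629958 (minus strand). Capitals mark the motifs named with the promoters below.
PSAK: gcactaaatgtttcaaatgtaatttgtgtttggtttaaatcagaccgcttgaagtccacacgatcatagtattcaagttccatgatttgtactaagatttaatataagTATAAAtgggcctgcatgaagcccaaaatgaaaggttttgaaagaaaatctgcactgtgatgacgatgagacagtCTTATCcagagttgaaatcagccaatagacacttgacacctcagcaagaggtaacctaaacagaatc
LHCB4.2: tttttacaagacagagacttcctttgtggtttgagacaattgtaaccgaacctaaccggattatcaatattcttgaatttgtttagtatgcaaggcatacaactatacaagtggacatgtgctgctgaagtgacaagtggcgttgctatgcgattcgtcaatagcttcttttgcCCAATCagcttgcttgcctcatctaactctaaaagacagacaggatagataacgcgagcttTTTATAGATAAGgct
PSAN: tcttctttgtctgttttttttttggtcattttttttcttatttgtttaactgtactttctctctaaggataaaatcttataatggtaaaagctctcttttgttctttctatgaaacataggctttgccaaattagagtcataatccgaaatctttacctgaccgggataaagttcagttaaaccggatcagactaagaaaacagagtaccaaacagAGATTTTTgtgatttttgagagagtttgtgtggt
In the PSAK sequence the capitals are a TATA core and an I-box core on the reverse strand. In LHCB4.2 they are a CCAATC motif and, close to the start, a TATA core on the reverse strand that runs straight into an I-box core, and in PSAN they are a CCA1-binding site on the reverse strand.

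Both calls were sensitive to single libraries. With replicate 1 or 3 of DPB2oe1.11.5 or any single library of Col-0 left out, PSAK was no longer called, with log2 fold changes of -1.55 to -1.41 and adjusted p up to 0.149, whereas without replicate 2 it was (adjusted p = 0.0468). LHCB4.2 lost its call with any of the 6 libraries left out (log2 fold changes -1.14 to -1.01, edgeR, adjusted p 0.0513 to 0.187).

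The minor antenna had the lowest group median in this comparison. Its 4 genes had a median log2 fold change of -1.06, with LHCB6 at -1.19 ± 0.28 (edgeR, adjusted p = 0.0755) and LHCB4.1 (AT5G01530), the paralogue of LHCB4.2, at -1.05 ± 0.28 (adjusted p = 0.107). LHCB6 was at 11353, 11512 and 12500 CPM in Col-0 and at 5589, 4814 and 5124 CPM in the line, so the groups were far apart although the test was not passed. LHCB5 (AT4G10340), the remaining linker, stood apart from these 3: its log2 fold change was -0.29, and its 8412, 4999 and 7175 CPM overlapped the 7206, 9389 and 8656 CPM of Col-0. The major antenna had a median of -0.56, from -0.26 for LHCB3 (AT5G54270), a trimer protein, to -0.81 for LHCB1.1. The 4 LHCA genes of photosystem I had a median of -0.65, from -0.49 for LHCA3 to -0.95 for LHCA2 (AT3G61470), and all 4 were without overlap with Col-0. None of these 8 genes passed the test.

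The 12 genes of photosystem I proper ranged most widely. Below PSAK came PSAE2 (AT2G20260; -0.85), whose product helps dock ferredoxin, PSAO (AT1G08380; -0.83) and PSAL (-0.82), which take part in docking the major antenna, and PSAH1 (AT3G16140; -0.74) and PSAE1 (AT4G28750; -0.73). At the other end were PSAN (AT5G64040; -0.11), a lumenal subunit near the plastocyanin site, PSAG (AT1G55670; -0.13), a membrane subunit beside LHCA1, PSAH2 (AT1G52230; -0.24) and PSAF (AT1G31330; -0.31), which docks plastocyanin. PSAG and PSAK are homologous proteins on opposite flanks of the complex. PSAG was at 1684, 1691 and 2177 CPM in Col-0 and 1788, 1507 and 1765 CPM in the line. Its groups thus overlapped, while those of PSAK did not. PSAN was at 1163, 2062 and 1881 CPM in Col-0 and 1682, 1277 and 1771 CPM in the line, with the lowest of the 6 values in a Col-0 library. PSAD1 (AT4G02770; -0.40) and PSAD2 (-0.33) lay between.

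On the side of photosystem II, PSBO2 (AT3G50820), 1 of the 2 genes for the protein that stabilises the manganese cluster, had the lowest adjusted p after PSAK and LHCB4.2. It was at 3243, 3285 and 3281 CPM in Col-0 and at 1502, 2083 and 1813 CPM in DPB2oe1.11.5, with a log2 fold change of -0.86 ± 0.19 (edgeR, adjusted p = 0.0622). The Col-0 libraries agreed closely and all 3 of the line were lower. PSBO1 (AT5G66570), its paralogue and the more abundant of the pair, had a log2 fold change of -0.39, as did PSBP1. PSBR (AT1G79040), a lumenal subunit needed for stable binding of PSBP, was at -0.78, PSBQ1 at -0.44 and PSBQ2 (AT4G05180) at -0.35. The small subunits PSBX (AT2G06520; -0.72), PSBY (-0.62), PSBW (-0.50) and PSBTN (AT3G21055; -0.34) completed the set, and none of these passed.

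**Figure D3:**
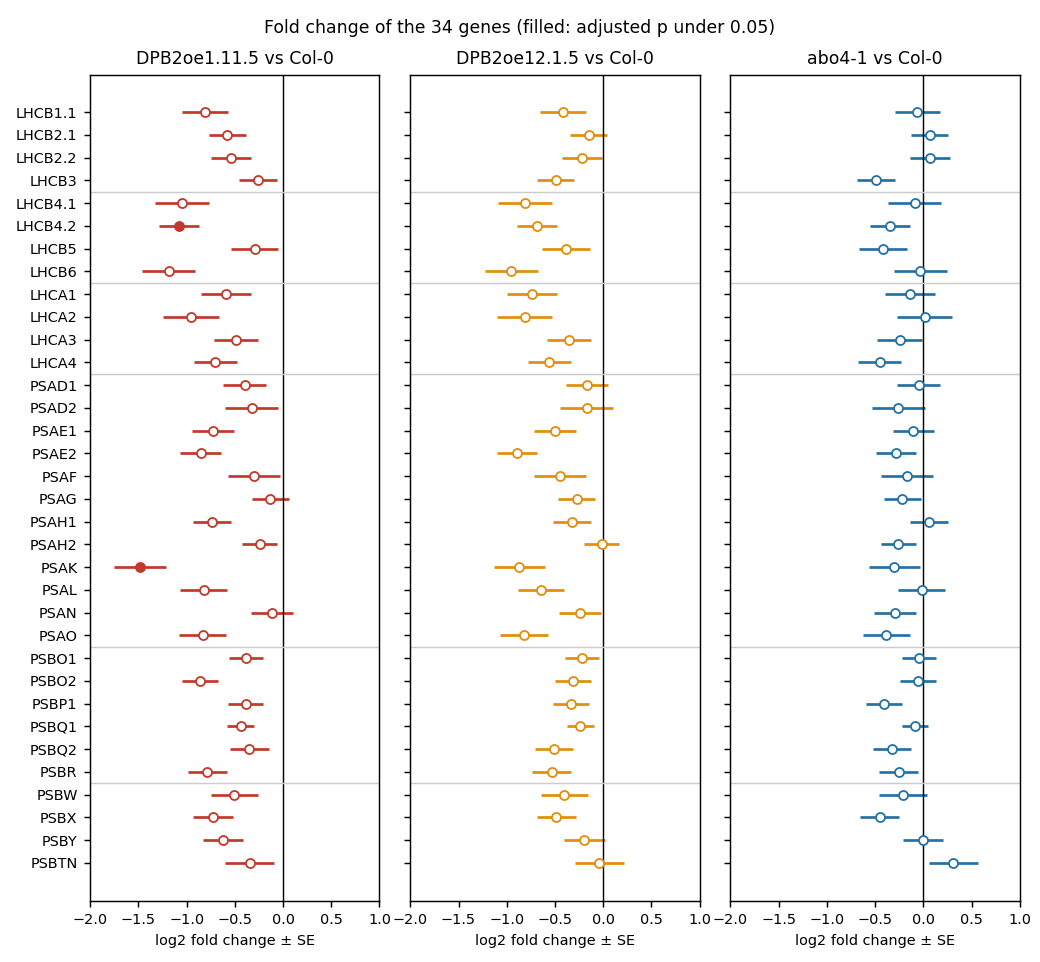
Log2 fold change against Col-0 with its standard error for the 34 genes (rows, grouped by role, with grey lines between groups) in DPB2oe1.11.5, DPB2oe12.1.5 and abo4-1, filled where the adjusted p was under 0.05. The filled points are PSAK and LHCB4.2 in DPB2oe1.11.5, and all 34 points of both overexpressing lines lie left of 0. The 3 panels share the Col-0 libraries.

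Without the 4 libraries of high LHY level, 15 of the 34 genes fell in DPB2oe1.11.5 against Col-0, where 3.04% of all genes tested fell. This fit keeps 2 libraries of the line, both of low LHY level, whereas Col-0 replicate 1 was intermediate. The 15 were LHCB1.1, LHCB2.1 and LHCB2.2 of the major antenna, LHCB4.1, LHCB4.2 and LHCB6 of the minor antenna, LHCA2, the photosystem I genes PSAE1, PSAE2, PSAH1, PSAK and PSAL, and PSBO2, PSBR and PSBY. PSAK was at -1.45 ± 0.25 (edgeR, adjusted p = 0.0148) and LHCB4.2 at -1.05 ± 0.15 (adjusted p = 0.00600), so the fold changes moved little and the standard error of LHCB4.2 became smaller. The median over the 34 genes was -0.63, and PSAN alone was positive (0.03). With all 12 libraries and the log2 LHY level as a covariate, 11 of the 34 fell, against 2.18% of all genes tested, and all 11 were among the 15. LHCB1.1, LHCB2.1, LHCB2.2 and PSBY were the 4 that did not pass there.

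The libraries of DPB2oe1.11.5 did not keep 1 order over the 34 genes. Replicate 2, the library of high LHY level, was below both other replicates for 18 of the 34 genes (52.9%, against 39.9% of all genes tested), among them LHCB3, LHCB5 and all 4 LHCA genes. For LHCB1.1, LHCB2.1, LHCB2.2, PSAH1, PSBO2, PSBQ1 and PSBY it was above both, so the genes of 1 role could go either way. Replicate 1 was below both others for 16 genes (47.1%, against 32.8%), and replicate 3 was above both for 19 (55.9%, against 28.6%) and below both for 0 (against 27.3%). LHCB1.1 was at 7100, 8432 and 7616 CPM and LHCA1 at 6231, 4966 and 6467 CPM in the 3 libraries, and at 14588, 12730 and 13148 CPM and 7654, 9723 and 9286 CPM in Col-0. All 3 libraries were thus below Col-0 for both genes, with the library of high LHY level at opposite ends.

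**Figure D4:**
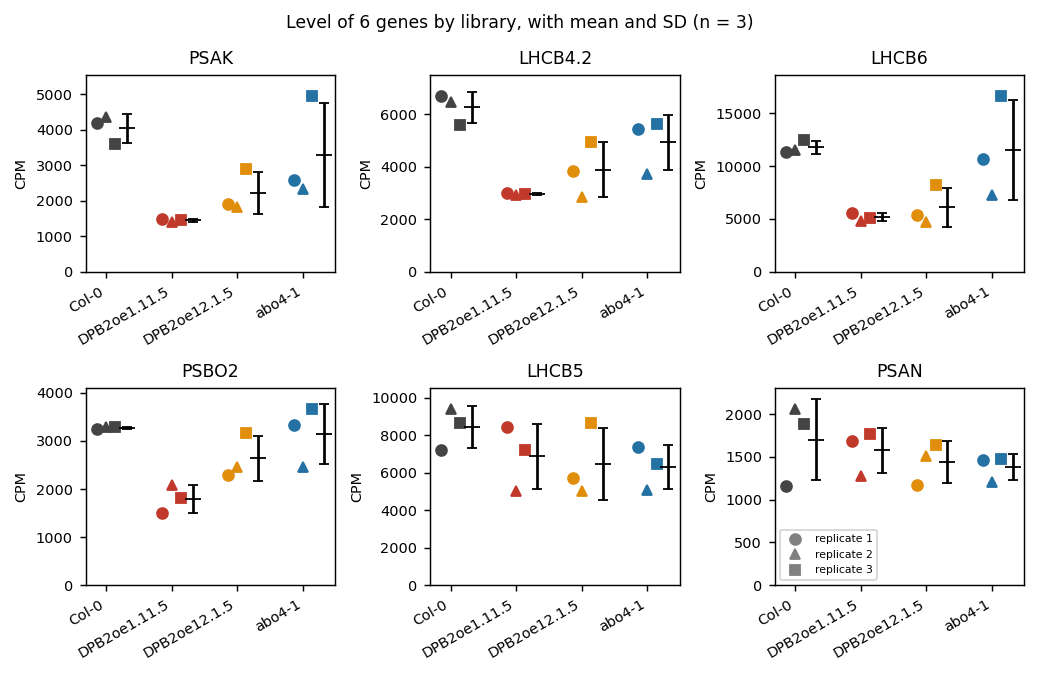
CPM of 6 genes in each library (circle, triangle and square for replicates 1, 2 and 3) with the mean and SD of the 3 libraries beside them, on axes from 0. PSAK, LHCB4.2, LHCB6 and PSBO2 are lower in all 3 DPB2oe1.11.5 libraries than in Col-0, whereas LHCB5 and PSAN overlap, and in DPB2oe12.1.5 replicate 3 lies above replicates 1 and 2 in all 6 panels.

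In DPB2oe12.1.5, the second overexpressing line, 0 of the 34 genes passed the test against Col-0 (edgeR), while 0.226% of all genes tested fell. At an unadjusted p under 0.05 there were 15 (16.7% of all genes tested), and DESeq2 called 5 (3.33% of all genes it tested). All 34 log2 fold changes were negative, with a median of -0.41 against 0.00 for all genes tested, and 13 genes had no overlap with Col-0 (11.4% of all genes tested). The lowest adjusted p was that of PSAE2, at 980, 1011 and 973 CPM in Col-0 and 580, 465 and 553 CPM in the line (log2 fold change -0.89 ± 0.21, edgeR, adjusted p = 0.0825). All 3 libraries, including replicate 3 of lower LHY level, were below Col-0. LHCB6 was next at 5414, 4670 and 8213 CPM, against 11353, 11512 and 12500 in Col-0 (log2 fold change -0.95 ± 0.27, edgeR, adjusted p = 0.130). PSAO was at 1602, 1607 and 2763 CPM, against 2753, 3568 and 4233 CPM (-0.82 ± 0.25, adjusted p = 0.137), and PSAK at 1923, 1828 and 2895 CPM (-0.87 ± 0.26, adjusted p = 0.141). For these 3 genes replicate 3 lay well above replicates 1 and 2, and for PSAO it overlapped Col-0.

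Replicate 3 of DPB2oe12.1.5 was above both other replicates for 33 of the 34 genes, where this held for 38.3% of all genes tested, and PSAE2 was the exception. Without replicate 3 the median log2 fold change of the 34 genes was -0.67. Without the 4 libraries of high LHY level, which leaves replicate 3 alone, it was -0.07 and 19 of the 34 were negative. With LHY as a covariate the median was -0.23 and 0 were called (0.361% of all genes tested, in either direction). The lone library was assumed to vary like the other groups. Summed seed storage transcripts were at 38.5 and 37.2 CPM in replicates 1 and 2, and at 1.04 to 8.86 CPM in the other 10 libraries, and EM6, an embryo gene, rose in the line (log2 fold change 2.57 ± 0.38, edgeR, adjusted p = 0.0128). The part of this difference between libraries in the result was not tested.

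In abo4-1 against Col-0, the comparison on the POL2A allele, 0 of the 34 genes passed (edgeR), as against 0.216% of all genes tested that fell. There were 3 at an unadjusted p under 0.05, near the 8.13% of all genes tested, and DESeq2 called 0 (1.34% of all genes it tested). The log2 fold changes ran from -0.49 to 0.31 with a median of -0.19 (0.00 for all genes tested), 28 were negative, and 3 genes had no overlap with Col-0 (6.37% of all genes tested). LHCB3 had the lowest adjusted p, with 6809, 4624 and 5485 CPM against 7978, 8302 and 7502 in Col-0 (log2 fold change -0.49 ± 0.20, edgeR, adjusted p = 0.507). PSBX was at 2631, 2057 and 1820 CPM against 2622, 2958 and 3331 (-0.45, adjusted p = 0.601), PSBP1 at 6237, 5060 and 6437 against 7917, 8004 and 7567 (-0.41, adjusted p = 0.607), and LHCA4 (AT3G47470) at 8368, 6019 and 7753 against 9916, 11377 and 9036 (-0.45, adjusted p = 0.662). LHCB3, PSBP1 and LHCA4 were below Col-0 in every library, and PSBX overlapped. The spread was wide for other genes: LHCB6 was at 10688, 7255 and 16678 CPM and PSAK at 2582, 2318 and 4961 CPM, so that replicate 3 exceeded every Col-0 library for both. Replicate 2 of abo4-1 was below both other replicates for 33 of the 34 genes, against 36.9% of all genes tested. The median log2 fold change was -0.02 without replicate 2, -0.35 without replicate 3, -0.12 without Col-0 replicate 3, and -0.01 without the 4 libraries of high LHY level.

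The coefficient of variation between the 3 libraries of a genotype, as a median over the 34 genes, was 9.004% in wild type and 10.84% in DPB2oe1.11.5, but 26.4% in DPB2oe12.1.5 and 22.3% in abo4-1. The 2 genotypes with the wider spread were those whose libraries differed in the level of nearly every one of the genes at once.

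Between the mutants, PSAK differed. It fell in DPB2oe1.11.5 relative to abo4-1, from 2582, 2318 and 4961 CPM to 1483, 1415 and 1446 CPM (log2 fold change -1.18 ± 0.27, edgeR, adjusted p = 0.0432), where 1.28% of all genes tested fell. The other 33 did not pass, with PSBO2 (-0.81, adjusted p = 0.0518) and LHCB6 (-1.16, adjusted p = 0.0545) next. The median was -0.45, 17 had an unadjusted p under 0.05 (16.4% of all genes tested), and 14 genes had no overlap (11.8% of all genes tested). Root markers moved here too: EXPA7, EXPA18 and SHR fell (edgeR, adjusted p = 0.0426, 0.0423 and 0.0477), 13 of 14 were negative, 8 had no overlap, and their median was -0.53. Their part in the result was not tested. With the replicate number as a block, 3 of the 34 fell (2.12% of all genes called, in either direction). PSAK was at -1.12 there (edgeR, adjusted p = 0.0366), but the replicate numbers are not known to pair the libraries. Without the 4 libraries of high LHY level 13 fell (3.63% of all genes tested), and with LHY as a covariate 10 fell (3.62%), all of them among the 13, PSAK in both. The PSAK call was kept without abo4-1 replicate 2 (adjusted p = 0.0222) and lost without any other single library of these groups, down to a log2 fold change of -0.74 without abo4-1 replicate 3 (edgeR, adjusted p = 0.155). Of the 34 genes, 10 were called without abo4-1 replicate 2 (2.25% of all genes, in either direction). Without DPB2oe1.11.5 replicate 2 there were 2 (2.82% of all genes), and the median was -0.24 without abo4-1 replicate 3.

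Between DPB2oe1.11.5 and DPB2oe12.1.5 none of the 34 genes passed the test (0 called by edgeR, where 0.0151% of all genes tested fell, and 0 by DESeq2, which called 3.03% of all genes). At an unadjusted p under 0.05 there were 3 (17.9% of all genes tested). Their median log2 fold change was -0.19, and 3 genes of DPB2oe1.11.5 lay below all 3 libraries of the other line (11% of all genes tested). The median was 0.06 without DPB2oe12.1.5 replicate 3, -0.29 without replicate 2 of that line, and -0.53 without the 4 libraries of high LHY level, where LHCB1.1, LHCB2.1, PSBO2 and PSBY fell, as did 3.13% of all genes tested. With LHY as a covariate the median was -0.33 and 0 were called (0.753% of all genes tested, in either direction). Between DPB2oe12.1.5 and abo4-1 no gene passed either (0 called by edgeR, where 0.341% of all genes tested fell, and 1 by DESeq2, which called 2.86% of all genes). At an unadjusted p under 0.05 there were 7, against 14.9% of all genes tested. There the median was -0.24 and 1 gene was without overlap (10.3% of all genes tested), and the median ran from -0.41 without DPB2oe12.1.5 replicate 3 to -0.07 without abo4-1 replicate 3. Without the 4 libraries of high LHY level it was -0.12 and 20 of the 34 were negative.

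The list holds 7 pairs of paralogues, which let the balance within a protein be followed in CPM per kb. PSBO2 made up 29.2%, 28.8% and 27.5% of the PSBO pair in Col-0 and 21.1%, 24.2% and 21.2% in DPB2oe1.11.5, a difference of -6.31 percentage points without overlap. In the other genotypes its share was 26.4% to 28.4%. PSAH2 made up 45.4%, 53.9% and 48.6% of the PSAH pair in Col-0 and 59.4%, 54.0% and 59.9% in DPB2oe1.11.5, a difference of 8.45 points, again without overlap although the nearest libraries almost met. This was the pair whose log2 fold changes differed most. PSAH1 was at 1415, 1061 and 1379 CPM in Col-0 and 678, 882 and 752 CPM in the line, and PSAH2 at 1174, 1239 and 1303 and then 989, 1032 and 1123 CPM. Both were lower in all 3 libraries of the line, PSAH1 by more. PSAE2 made up 23.0% ± 0.399 of the PSAE pair in Col-0, 18.8% ± 2.24 in DPB2oe12.1.5 and 20.8% ± 0.828 in abo4-1, both without overlap. Of the 21 comparisons of a pair share with Col-0, 4 were without overlap, each at p = 0.1 (two-sided exact permutation test). That was the smallest p, or 0.525 after Benjamini-Hochberg adjustment. With 3 against 3 libraries this test cannot give a p under 0.1, so it cannot decide on a shift of balance. Without the 4 libraries of high LHY level the DPB2oe1.11.5 values left were 21.1% and 21.2% for PSBO2 and 59.4% and 59.9% for PSAH2. Leaving out a library of the line cannot make groups overlap that did not, so this is no check of the difference. Shares of LHCB2, LHCB4, PSAD and PSBQ overlapped Col-0 in all 3 genotypes.

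**Figure D5:**
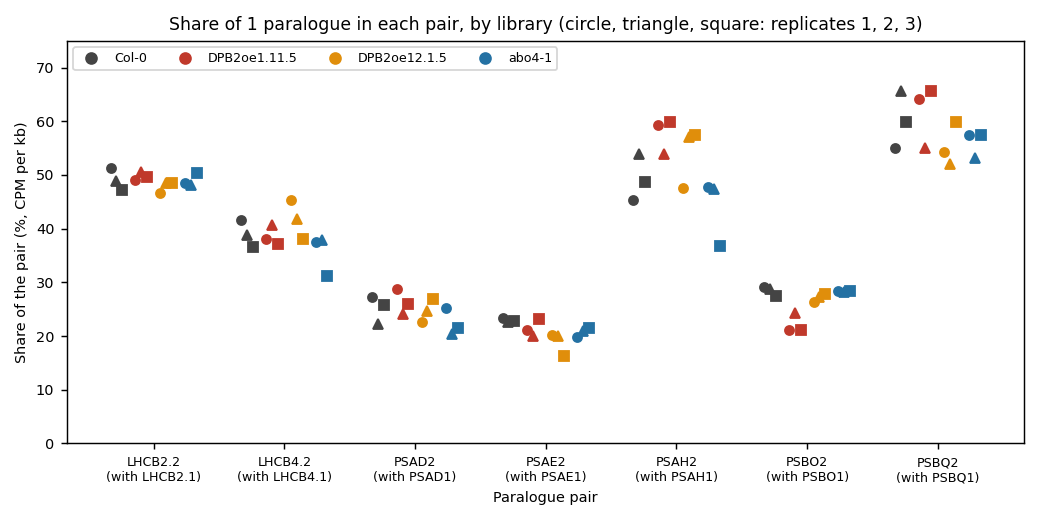
Share of the named paralogue in the summed level of its pair (percent, from CPM per kb) in each library, by pair and genotype, with circles, triangles and squares for replicates 1, 2 and 3. In DPB2oe1.11.5 the PSBO2 share is 21.1% to 24.2%, below the 27.5% to 29.2% of Col-0, and the PSAH2 share is 54.0% to 59.9%, above the 45.4% to 53.9% of Col-0.

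The near-identical antenna genes are less certain than the rest, because reads that mapped equally well to several places were not counted. The coding sequences of LHCB2.1 (AT2G05100) and LHCB2.2 were 92.9% identical, with an identical run of up to 137 bases, and LHCB1.1 was 95.7% identical to LHCB1.2 and 96.1% to LHCB1.3, neighbours outside the list. The other 6 pairs were 79.5% to 88.0% identical with runs of at most 35 bases. LHCB1.2 was at 16821, 18113 and 19062 CPM in Col-0 and 8676, 7060 and 9083 CPM in DPB2oe1.11.5, and LHCB1.3 at 40243, 35990.1 and 39337 and then 17396, 23144 and 20974 CPM. Both lay below Col-0 in all 3 libraries without passing the test (log2 fold changes -1.12 and -0.91, edgeR, adjusted p = 0.149 and 0.120).

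Motifs were searched on both strands in the 250 bases before each start, with the share among all 27443 promoters of protein-coding genes on the 5 nuclear chromosomes beside the count. The G-box CACGTG, a site of bZIP and bHLH factors, was in 8 of the 34 promoters (23.5%, against 6.49% of all). The I-box core GATAAG, known from light-regulated genes, was in 9 (26.5%, against 12.3%), and CCAATC, reported at promoters bound by GLK factors, in 8 (23.5%, against 10.2%). The CCA1-binding sites AAAAATCT and AACAATCT, through which a morning clock factor binds antenna promoters, were in 4 (11.8%, against 6.69%) and 1 (2.94%, against 1.83%). The evening element AAAATATCT was in 0 (against 2.36%) and the TATA core TATAAA in 15 (44.1%, against 47.4%). No motif contains another, the G-box reads the same on both strands, and the shares describe letters in a window, not binding. Of the 3 minor antenna genes at -1.05 or below in DPB2oe1.11.5, LHCB4.1 held a G-box and CCAATC, LHCB4.2 the I-box core and CCAATC, and LHCB6 a G-box and an I-box core. LHCB5, the minor antenna gene at -0.29, held none of the 7. These 4 genes were picked with their fold changes known, and the other members did not follow such a split. PSAL (-0.82), PSBR (-0.78) and PSBY (-0.62) also held none of the 7, while PSAH2 (-0.24), PSBTN (-0.34) and PSBQ2 (-0.35) held a G-box. The 250 bases of LHCB6 (chr1:5447881-5448130, minus strand) and LHCB5 (chr4:6407757-6408006, plus strand) are set side by side, in the strand of the gene, with the G-box and I-box core of LHCB6 in capitals.
LHCB6: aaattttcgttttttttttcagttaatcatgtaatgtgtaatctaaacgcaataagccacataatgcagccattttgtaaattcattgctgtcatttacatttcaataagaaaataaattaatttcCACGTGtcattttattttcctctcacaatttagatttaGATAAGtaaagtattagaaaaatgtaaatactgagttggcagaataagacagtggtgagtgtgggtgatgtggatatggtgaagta
LHCB5: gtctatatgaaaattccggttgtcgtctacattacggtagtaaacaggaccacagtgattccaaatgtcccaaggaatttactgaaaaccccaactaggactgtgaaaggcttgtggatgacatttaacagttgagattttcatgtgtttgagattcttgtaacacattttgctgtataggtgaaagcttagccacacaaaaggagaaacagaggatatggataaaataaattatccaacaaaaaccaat

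Other photosynthesis genes were counted in lists set beside the 34. Of 13 further photosystem genes, 0 passed in DPB2oe1.11.5 against Col-0, with 11 negative, a median of -0.55 and LHCA6 (-0.55, edgeR, adjusted p = 0.104), LHCB4.3 (-0.98, 0.115) and LHCB1.3 lowest in adjusted p. LHCA6 fell relative to abo4-1 (-0.63, adjusted p = 0.0462). Of 19 Calvin cycle genes 0 passed against Col-0, with a median of -0.26. CP12-1, which regulates that cycle, was at 1544, 1370 and 1155 CPM in Col-0 and 508, 561 and 474 CPM in the line (log2 fold change -1.40, edgeR, adjusted p = 0.0608) and fell relative to abo4-1 (-1.69, adjusted p = 0.0181). Its 3 libraries were far under Col-0, including the one of high LHY level. RBCS1A, a small subunit of Rubisco and a marker of green tissue, was at 27983, 24398 and 24172 CPM in Col-0 and 11972, 19724 and 13557 CPM in the line (-0.76, adjusted p = 0.124). RCA, which activates Rubisco, was at 10462, 8106 and 7587 and then 6135, 14529 and 6671 CPM (0.06, adjusted p = 0.950), so DPB2oe1.11.5 replicate 2 was above Col-0 and the other replicates below it.

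Chlorophyll synthesis did not show the same direction. Its 18 genes had a median log2 fold change of 0.08 in DPB2oe1.11.5 against Col-0, 11 of them positive and 0 called, with CHLI1, a magnesium chelatase subunit, at 0.41 (edgeR, adjusted p = 0.189). The 14 genes of electron transport and ATP synthase had a median of -0.07, and 0 were called, FD2, the main leaf ferredoxin, being lowest in adjusted p (-0.38, 0.264). The 8 genes of antenna assembly and its kinases had a median of -0.15, with STN8 at -0.31 (adjusted p = 0.297), and 0 were called. Of 15 regulators 0 were called, with a median of -0.01. GLK2, an activator of antenna genes, was at 235, 195 and 221 CPM in Col-0 and 119.9, 177 and 128 CPM in the line (-0.62 ± 0.15, edgeR, adjusted p = 0.0861), lower in 3 of 3 libraries. GLK1, its paralogue, was at 193, 206 and 225 and then 175, 166 and 169 CPM (-0.29 ± 0.15, adjusted p = 0.396), also lower in 3 of 3. The 7 plastid-encoded photosynthesis genes had a median of -0.51 for DPB2oe1.11.5 and of 1.28 for DPB2oe12.1.5, with 0 called for either, in libraries selected for mRNA. Of the 14 root markers, 0 passed in DPB2oe12.1.5 or abo4-1 against Col-0, with medians of 0.17 and -0.09.

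In DPB2oe12.1.5 against Col-0 the same lists gave medians of -0.49 for the further photosystem genes, with LHCB1.2 at -1.15 (edgeR, adjusted p = 0.138), 0.15 for the Calvin cycle, with GAPA at 0.68 (adjusted p = 0.164), and -0.08 for chlorophyll synthesis, with CHLH at 0.49 (adjusted p = 0.176). In abo4-1 they were -0.14, 0.06 and -0.01. None of the genes in these 3 lists was called in either comparison. With all 12 libraries the 34 genes thus had lower medians than the Calvin cycle and chlorophyll synthesis lists in both overexpressing lines, which share the Col-0 libraries. Without the 4 libraries of high LHY level, which leaves 1 library of DPB2oe12.1.5, this order did not hold in that line. The median was -0.07 for the 34 genes and -0.18 for chlorophyll synthesis. In DPB2oe1.11.5 the medians of the root markers and the plastid-encoded genes were about as low as that of the 34. Of the 7 plastid-encoded genes, however, 0 were without overlap with Col-0, where their summed level was 336, 7095 and 5754 CPM. Their median was -0.07 without the 4 libraries of high LHY level. The difference between the lists was not tested.

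Without the 4 libraries of high LHY level the lists stood differently in DPB2oe1.11.5 against Col-0, where 3.04% of all genes tested fell. Of the further photosystem genes 7 of 13 fell, with a median of -0.63, LHCB1.2, LHCB1.3, LHCA6 and LHCB4.3 among them. Of the Calvin cycle genes 8 of 19 fell, with a median of -0.43, RBCS1A among them (-0.99, edgeR, adjusted p = 0.0138). GLK2 fell (-0.80, edgeR, adjusted p = 0.0124), and the median of the 15 regulators was -0.35. Of the 14 root markers 4 fell, with a median of -0.56. None of the genes of chlorophyll synthesis (median 0.02), electron transport and ATP synthase (-0.13), antenna assembly (-0.01) or the plastid-encoded list (-0.07) was called by edgeR. In DPB2oe12.1.5, with 1 library left, the medians were -0.18 for the further photosystem genes, 0.14 for the Calvin cycle and -0.18 for chlorophyll synthesis. In abo4-1 they were 0.05, -0.05 and 0.01, with 0 called in these lists (0.71% of all genes tested, in either direction).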

How the data were processed

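Single-end, stranded Ion Torrent Proton libraries, sized to 230 bp after mRNA selection per the labels' protocols, were mapped to TAIR10 per the submitters' processing notes. The authors deposited raw read counts per locus, unscaled, and per the file headers reads with equally good hits elsewhere (2.09% to 3.01% of mapped reads) were removed. The sources used here name no aligner and do not say whether counting used strand, so antisense reads cannot be told apart. Library titles of DPB2oe1.11.5 end in another digit than the genotype label, which was used.

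Of 33602 loci, 32835 (97.7%) matched the RefSeq TAIR10.1 annotation, including all 34 genes. Counts were tested in R 4.3.3 with edgeR 4.0.16: filterByExpr by genotype, TMM, 1 robust quasi-likelihood fit of all 12 libraries with a mean per genotype, and Benjamini-Hochberg adjustment over 19924 genes, called under 0.05. The common biological coefficient of variation was 0.226. CPM are counts scaled by library size and TMM, and CPM per kb use the model length in the files. The script was tested on simulated counts. DESeq2 1.42.0, other scalings, filters, sample sets, a replicate block and LHY terms were tried as alternatives. Pair shares were compared with SciPy 1.17.1.

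The members, gene lists and settings were chosen with earlier results of these data known. Values per library were printed for the up to 4 genes of lowest adjusted p in each comparison with Col-0, the extremes per length of each role group and the paralogue pair differing most; LHCB5, PSAG, LHCB1.2, LHCB1.3, RBCS1A, RCA and CP12-1 were added. Other lists were named by up to 3 genes of lowest adjusted p. Replicate numbers were checked by the correlation of deviations from the group means. It was above 0.1 in all 3 same-numbered pairs for DPB2oe1.11.5 with abo4-1 (0.137, 0.552 and 0.348), with no shared batch or day in the labels, and not for the other comparisons.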

Additional observations from a re-analysis of the deposited data

Results flagged for a closer look

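PSAK was the 1 gene of the 34 that differed between mutants by a test of the difference itself. Its level in DPB2oe1.11.5 relative to abo4-1 was a log2 fold change of -1.18 (edgeR, adjusted p = 0.0432), lower in 3 of 3 libraries. In that comparison 1.28% of all genes tested fell. The call was kept without abo4-1 replicate 2 and lost without any other single library of these groups (edgeR, adjusted p 0.0222 to 0.186). The value without abo4-1 replicate 3 was -0.74. The call was also lost with only the groups compared and with a minimum of 10 CPM in 3 libraries.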

How the results depend on the processing

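RLE and upper-quartile scaling and the removal of organelle loci left every count and median of the 34 genes on its side of the threshold, and no alternative that was run turned the direction of a called gene. In DPB2oe1.11.5 against Col-0, where 2 of the 34 were called, DESeq2 called 15 (2.82% of all genes, in either direction). No filter on low counts gave 5 (0.677%), a fit of only the groups compared 11 (1.11%) and the replicate block 5 (0.924%). The fit without the 4 libraries of high LHY level gave 15 (4.44%) and LHY as a covariate 11 (2.82%). Leaving out 1 library gave 0 to 2 (0.104% to 1.41%) with a median of -0.63 to -0.48. In DPB2oe12.1.5 against Col-0, with 0 called, DESeq2 called 5 (3.33% of all genes, in either direction). No filter (0.567%), only the groups compared (0.618%) and the replicate block (0.763%) called 1 each. The median was -0.67 to -0.28 over libraries left out and -0.074 without the 4 libraries. Between the overexpressing lines, with 0 called, LHY as a covariate also called 0 (0.753% of all genes, in either direction). The median was -0.53 without the 4 libraries and ran from -0.29 to 0.055 over libraries left out. In DPB2oe1.11.5 against abo4-1, with 1 called, DESeq2 called 9 (4.27%), no filter 4 (1.47%) and a minimum of 10 CPM in 3 libraries 0 (2.04%). Only the groups compared gave 0 (0.527%) and the replicate block 3 (2.12%). The fit without the 4 libraries gave 13 (5.11%) and LHY as a covariate 10 (4.87%). Leaving out 1 library gave 0 to 10 (0.391% to 2.82% of all genes). In DPB2oe12.1.5 against abo4-1, with 0 called, DESeq2 called 1 (2.86% of all genes), and leaving out 1 library gave 0 to 1 (0.242% to 1.02%). The cause of these changes was not tested. In abo4-1 against Col-0 each of the 17 settings called 0. The replicate numbers are not known to pair the libraries in any comparison, so all block values are for reference. Where a library left out leaves 2 in its group, and in the fit that keeps 1 DPB2oe12.1.5 library, the group was assumed to vary like the others. All 34 genes were detected in every library, and what set the precision was not tested.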
